A study of Bos taurus with 56 samples.

Results

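The ipsilateral isthmus of lactating cows was compared with that of heifers, the isthmus being the narrow uterine end of the oviduct and the ipsilateral side the one that bears the corpus luteum (CL). The members were the 4 libraries labelled as lactating, isthmus and ipsilateral and the 5 libraries labelled as heifer, isthmus and ipsilateral, 9 of the 56 libraries of the series. Each library came from a different Holstein animal, named here by its group and a letter (lactating cows A to D, heifers A to E). The labels disagree on 2 animals: the number of lactating cow B stands under the non-lactating label in the ipsilateral ampulla and under the lactating one in the other 3 segments, and that of non-lactating cow C stands under the lactating label there and under the non-lactating one in the other 3. The isthmus labels were used, and which label is right could not be settled. Without cow B, 91 of the 92 genes named kept the sign of their log2 fold change, the exception being OVGP1, and the largest move was 0.41 (BOLA-DQA5). The series also holds the ampulla, the contralateral oviduct and 5 cows that calved but were never milked. The lactating cows had calved once, were milked and were slaughtered at about 60 days post-partum, whereas the heifers had never calved. All animals of both groups had their estrus synchronized with an intravaginal progesterone device, a prostaglandin F2α analogue and the gonadotropin-releasing hormone agonist buserelin, and their tissue was taken on Day 3 after estrus. None of the animals was inseminated, so that the oviducts were those of cyclic and not of pregnant females. Epithelial cells were gently scraped from the isthmus, and stranded libraries were made from total RNA. Lactation, a first pregnancy and calving, and whatever age and body size go with them, cannot be told apart in this comparison.

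On Day 3 the early bovine embryo is still in the oviduct, and the isthmus is the segment that it enters on its way to the uterus. The isthmic lining consists of ciliated cells, which move fluid and gametes, and of secretory cells, which release proteins, lipids and ions into the lumen. Lactation in dairy cows draws glucose, fatty acids and cholesterol-rich lipoproteins towards the udder. Epithelial cells obtain cholesterol either by synthesis through the mevalonate pathway or by uptake of lipoproteins, and SREBP transcription factors switch both on when cell sterols are low. They also display peptides on MHC molecules, with class I found on nearly all cells and class II mostly on professional antigen-presenting cells or on epithelium exposed to interferon-γ.

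The labelled tissue carried its defining transcripts in all 9 libraries. Levels are given as counts-per-million (CPM) of the reads on tested genes, scaled between libraries by edgeR's TMM method. The 5 epithelial markers (EPCAM, CDH1, KRT7, KRT8 and KRT18) summed to 1328 to 1539 CPM in heifers and 1082 to 1565 CPM in lactating cows, and the 8 ciliated cell markers, which include FOXJ1, to 2726 to 3459 CPM and 2585 to 3929.6 CPM. Of the epithelial markers KRT8 and KRT18 were lower in the cows at an unadjusted p under 0.05, by -0.37 and -0.33 on the log2 scale, and 0 of the markers were at that threshold without cow B. OVGP1, the oviduct-specific glycoprotein of secretory cells, measured 152, 6073, 6570.0, 11678 and 13470.2 CPM in heifers A to E and 9566, 11216, 2002 and 8073 CPM in cows A to D. Heifer A was thus far below the other heifers for OVGP1, and cow C was the lowest of the cows. Haemoglobin transcripts HBA and HBB were at 0 in all 9 libraries, as were the B cell markers CD79B and MS4A1. Alignments that were not unique were left out of the gene counts, so that a count of 0 does not show that blood was absent. Gene counts totalled 3875324 to 5556310 per heifer library and 4842505 to 6208967 per lactating library, which was 10.65 to 13.68% and 9.22 to 11.3% of the alignments in the table.

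Of 13840 genes tested with edgeR's quasi-likelihood test, 0 (0%) reached an adjusted p under 0.05, and the smallest adjusted p was 0.152. Without cow B, 0 genes passed as well. At an unadjusted p under 0.05, 765 genes (5.53%) were higher and 681 (4.92%) lower in the lactating cows. The libraries of both groups did not overlap for 202 genes (1.46%) that were higher in every cow than in any heifer and for 248 genes (1.79%) that were lower in every cow. DESeq2, run as an alternative on the same counts, called 61 genes higher (0.398%) and 66 lower (0.43%) of 15332 at an adjusted p under 0.05. The median log2 fold change over all tested genes was 0.01, with 7119 genes higher and 6721 lower in the cows. The lists below are thus read against a centre near 0 and against these background values, also where they are not repeated. The lists were chosen with earlier results of these data known, so that their counts describe these data and test nothing. None of the genes below passed edgeR's adjusted threshold in this fit, and "higher" and "lower" describe values, while the unadjusted threshold is used to count genes. The tools differed on them: DESeq2 called 57 of the 92 genes named, and edgeR without its filter on low counts called AGT, SAA3 and BLA-DQB. The 92 genes were picked largely by small p in these data or by the study, which used DESeq2. This count thus does not measure how far the tools agree. The adjusted p of both tools is given for part of the genes. DESeq2 did not call INSIG1, SREBF2, DHCR7, ME2, MDH1, CALR, BTC, EGFR, ERBB2, ERBB3, GHR, IRS2, M-SAA3.2, OVGP1, TYMS, CDKN1C, HIST1H2BB or HSPA8. Nor did it call CD74, CIITA, BOLA-DMB, PSMB9, TAP1, CSF1R, C1QB, AIF1, CD2, DBP, NR3C1, ESR1, HSPB1 or NFKBIZ. For C1S, SERPING1 and BOLA-DQA5, which count among the 92 genes, DESeq2 gave no p, so that it could not call them.

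**Figure D1:**
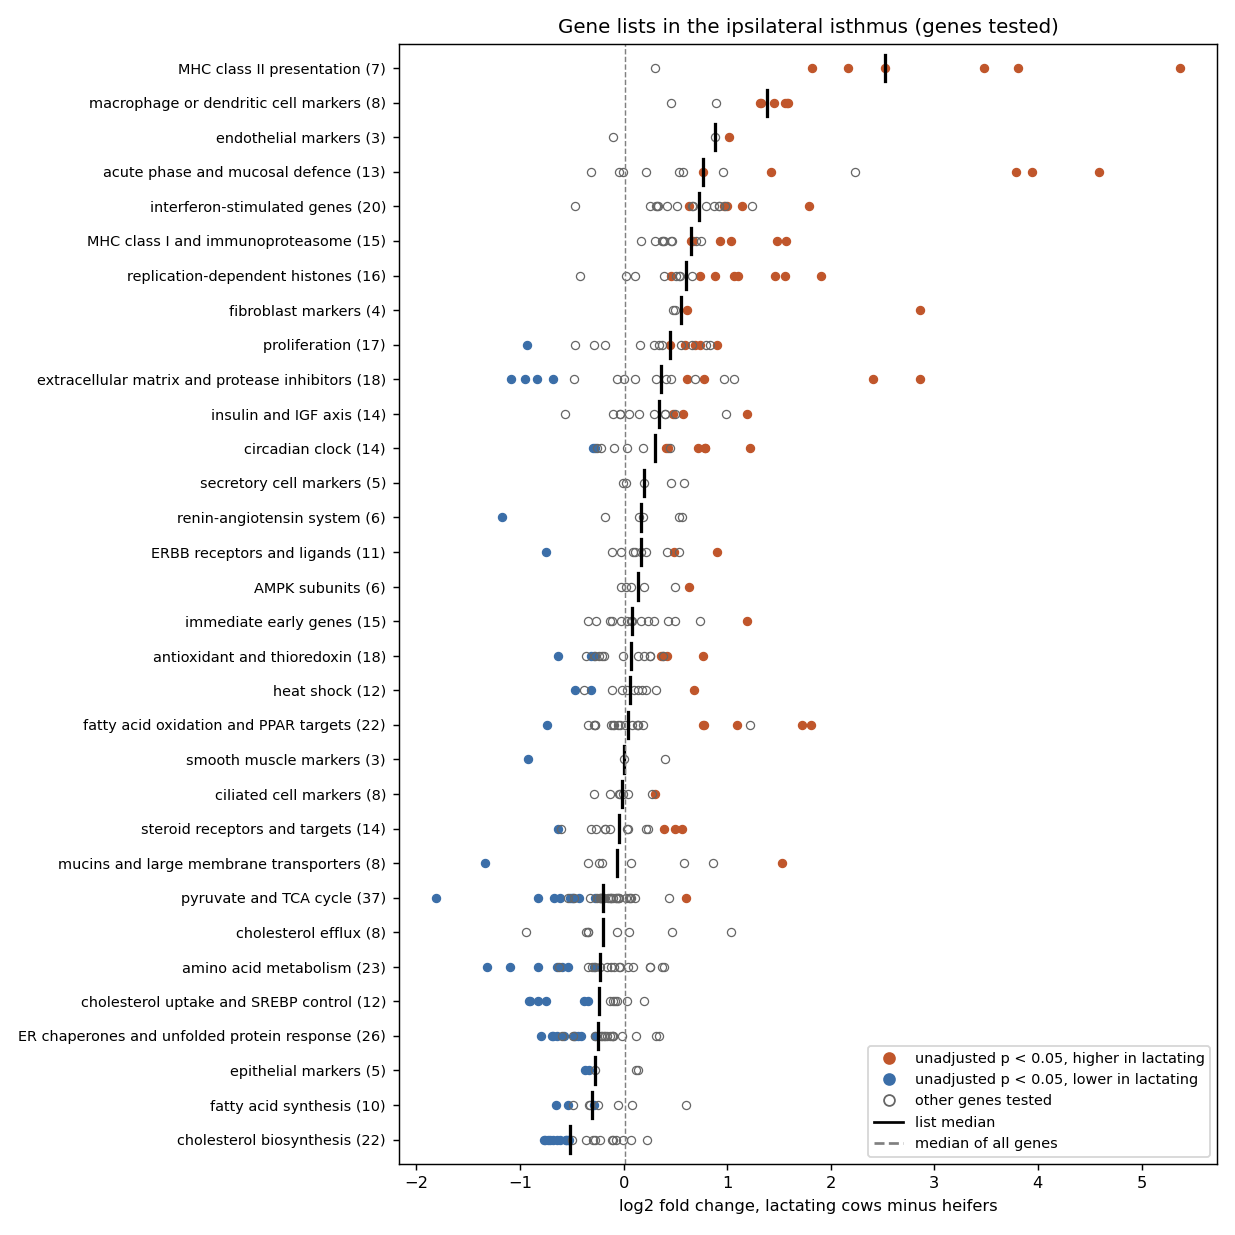
Log2 fold change (horizontal axis, lactating cows minus heifers) of every tested gene of each list in the ipsilateral isthmus, with the number of tested genes beside the name of each list with at least 3 of them and lists in order of their median (black bar). Filled points have an unadjusted p under 0.05 in edgeR's test, and the dashed line is the median of all tested genes at 0.01. Cholesterol biosynthesis had the lowest median at -0.52 and MHC class II presentation the highest at 2.53.

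Cholesterol genes were lower in the lactating cows, both those that make the sterol and those that take it up. Of 22 tested genes of cholesterol biosynthesis, 20 had a negative log2 fold change, 11 of them at an unadjusted p under 0.05 and 0 in the other direction, against a background of 4.92% lower. The list's median was -0.52. The cows lay below all heifers for 6 of the 22 genes, against 1.79% of all tested genes. DESeq2 called 6 of the 22 lower, against 0.43% of all genes. HMGCS1, which makes the HMG-CoA that feeds the pathway, measured 248, 245, 276, 358 and 317 CPM in heifers A to E and 146, 202, 139 and 220.4 CPM in cows A to D. Every cow was below every heifer, although cow D came close to the lowest heifers, and the log2 fold change was -0.71 ± 0.17 (SE, adjusted p = 0.254 in edgeR and 0.021 in DESeq2). Further along the pathway, IDI1 (isopentenyl diphosphate isomerase) differed by -0.68, SQLE (squalene epoxidase) by -0.76, CYP51A1 (lanosterol demethylase) by -0.56 and DHCR7 by -0.53 on the log2 scale. SQLE was the one of these 4 whose groups overlapped, since cow B, at 107 CPM, was above heifer A, at 102 CPM.

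Of 12 tested genes of cholesterol uptake and SREBP control, 10 were lower in the cows, 6 of them at an unadjusted p under 0.05, with a list median of -0.24. LRP2, the endocytic receptor megalin of absorptive epithelia, measured 4007, 4685, 3944, 3673 and 3856 CPM in the heifers and 1094, 2907, 1901 and 2742 CPM in the cows. The heifers lay close together and above all cows, of which cow A was the lowest, and the log2 fold change of -0.90 ± 0.24 became -0.68 without cow A. INSIG1, the sterol-sensing retention protein that is itself an SREBP target, differed by -0.75 ± 0.19, with 32.2, 29.3, 27.9, 46.6 and 31.9 CPM in the heifers and 14.4, 23.3, 20.1 and 21.8 CPM in the cows. SREBF2, which encodes the SREBP of sterol synthesis, differed by -0.39 ± 0.12 (adjusted p = 0.334 in edgeR and 0.136 in DESeq2), and its groups overlapped at cow C. The 8 tested genes of cholesterol efflux had 0 members past the unadjusted threshold in either direction and a median of -0.20, which was -0.10 without heifer B and -0.12 without heifer D. Without cow A, 11 genes of cholesterol biosynthesis were lower at an unadjusted p under 0.05, and the list's median was -0.37.

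Genes of fatty acid synthesis were lower too, by a smaller number of genes. Of 10 tested, 8 were lower, 3 at an unadjusted p under 0.05, with a median of -0.30. Without cow D 1 gene was lower at that threshold, and without cow A, cow B or heifer E 2 were. FASN, the fatty acid synthase, measured 281, 268, 268, 204 and 268 CPM in the heifers and 129, 184, 160.4 and 182 CPM in the cows. The cows were all below the heifers, of which heifer D was the lowest, and the log2 fold change was -0.65 ± 0.13 (adjusted p = 0.244 in edgeR and 0.00494 in DESeq2).

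Single genes of fatty acid oxidation and of the PPAR targets were higher in the cows, while the list's median stayed near 0. Of its 22 tested genes, 5 were higher and 1 lower at an unadjusted p under 0.05, against backgrounds of 5.53 and 4.92%, and the median was 0.05. The count of lower genes was 3 without cow B, 2 without heifer D and 0 without cow A or heifer C. The 5 were PDK4, ACSBG2, VNN1, TXNIP and ALDH9A1, and DESeq2 called all 5. PDK4, the kinase that shuts pyruvate out of the mitochondrial TCA cycle, measured 77.8, 111, 80.9, 77.6 and 108 CPM in the heifers and 213, 262, 148 and 157 CPM in the cows. Each cow was above all heifers, cows A and B the most, and the log2 fold change was 1.10 ± 0.19 (adjusted p = 0.173 in edgeR and 0.00019 in DESeq2). ACSBG2, an acyl-CoA synthetase, measured 1.02, 3.48, 5.38, 3.12 and 4.04 CPM in the heifers and 12.8, 14.6, 11.6 and 7.0 CPM in the cows, which gave a log2 fold change of 1.72 ± 0.37 without overlap. VNN1, a pantetheinase that releases the vitamin precursor of coenzyme A and is a known PPARα target, measured 5.36, 2.75, 5.38, 6.24 and 4.04 CPM and 34.1, 14.2, 7.57 and 10.9 CPM. Cow A was the highest for VNN1, and the log2 fold change of 1.81 ± 0.42 became 1.20 without it. TXNIP, a glucose-responsive inhibitor of thioredoxin and of glucose uptake, differed by 0.76 ± 0.18, and ALDH9A1, an aldehyde dehydrogenase of carnitine synthesis, by 0.77 ± 0.19. Cow C was within the heifers' range for TXNIP and cow B for ALDH9A1. PRKAG3, a regulatory subunit of the energy sensor AMPK, was the 1 of 6 tested AMPK subunits past the unadjusted threshold. It measured 24.8, 17.6, 21.1, 20.6 and 25.2 CPM in the heifers and 33.1, 37.9, 33.9 and 30.6 CPM in the cows without overlap, which gave a log2 fold change of 0.63 ± 0.14.

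Most genes of glucose, pyruvate and TCA cycle metabolism were slightly lower in the cows. Of 37 tested, 30 were lower, 9 of them at an unadjusted p under 0.05 and 1 higher, with a median of -0.20 that was -0.13 without cow B. PDK4, which was higher in every cow and acts on pyruvate use, was counted with the fatty acid oxidation and PPAR list and not here. HK1, the hexokinase that phosphorylates glucose, measured 94.4, 74.9, 87.1, 77.8 and 85.2 CPM in the heifers and 59.2, 58.5, 62.8 and 56.3 CPM in the cows. The 4 cows lay in a narrow band below the lowest heifer, and the log2 fold change was -0.50 ± 0.10 (adjusted p = 0.244 in edgeR and 0.0077 in DESeq2). OGDH, the catalytic part of the 2-oxoglutarate dehydrogenase of the TCA cycle, measured 288, 245, 227, 173 and 219.8 CPM and 117, 159, 142 and 160.2 CPM, which gave a log2 fold change of -0.67 ± 0.15 without overlap. ME3, a mitochondrial malic enzyme counted by few reads, had 5.61, 4.4, 5.19, 7.07 and 5.58 CPM and 2.41, 2.08, 1.4 and 0.488 CPM. Its log2 fold change was -1.81 ± 0.41, and ME2, the other mitochondrial malic enzyme, went the opposite way at 0.60 ± 0.17. MDH1, the cytosolic malate dehydrogenase, differed by -0.52 ± 0.16, with cow D inside the heifers' range.

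Amino acid metabolism showed the same direction, with 17 of 23 tested genes lower and a median of -0.23. At an unadjusted p under 0.05, 7 were lower and 0 higher, against backgrounds of 4.92 and 5.53%. GLUD1, the glutamate dehydrogenase that passes glutamate into the TCA cycle, measured 542, 446, 679, 365 and 457 CPM in the heifers and 271, 315, 272 and 262 CPM in the cows. All cows were below heifer D, the lowest heifer, and the log2 fold change was -0.83 ± 0.16 (adjusted p = 0.244 in edgeR and 0.00207 in DESeq2). GAT, as the table names it, measured 98.5, 75.8, 64.6, 68 and 72.7 CPM in the heifers and 10.8, 32.3, 42.5 and 36.1 CPM in the cows, and cow A was the lowest by far. The log2 fold change of -1.32 ± 0.30 became -1.04 without cow A, and the groups still did not overlap. TST, a mitochondrial sulfurtransferase, differed by -0.65 ± 0.16 without overlap, and ACY1, an aminoacylase, by -1.10 ± 0.29, with heifer D at 49.1 CPM inside the cows' range.

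**Figure D2:**
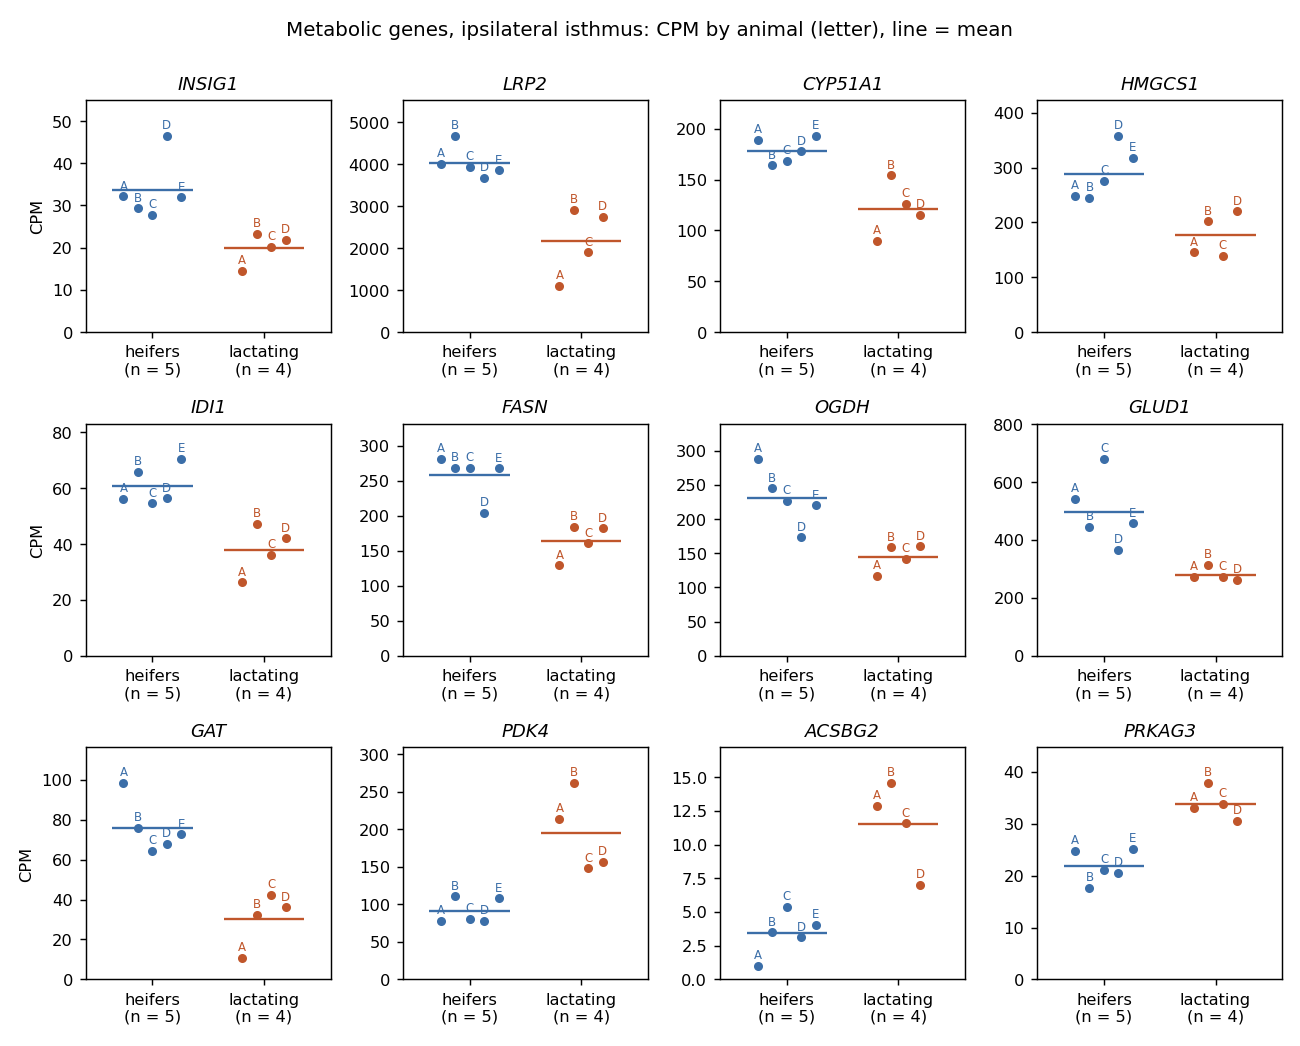
CPM (vertical axis, from 0) of 12 metabolic genes in the ipsilateral isthmus of 5 heifers (blue) and 4 lactating cows (orange), 1 point per animal with its letter and a line at the group mean. For LRP2 the heifers lie between 3673 and 4685 CPM and the cows between 1094 and 2907 CPM; for PDK4, ACSBG2 and PRKAG3 the cows are the higher group.

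Genes of protein folding in the endoplasmic reticulum (ER) were lower in the cows. Of 26 tested genes in the list of ER chaperones and unfolded protein response genes, 23 were lower, with a median of -0.25. At an unadjusted p under 0.05, 10 were lower and 0 higher. The list also held the secretory-pathway genes NUCB2 and SEC23B, which are not ER chaperones. HSPA5, the ER chaperone BiP, measured 345, 235, 249, 209 and 321 CPM in the heifers and 148, 182, 194 and 153 CPM in the cows. The cows did not reach heifer D, the lowest heifer, and the log2 fold change was -0.69 ± 0.16 (adjusted p = 0.254 in edgeR and 0.0181 in DESeq2). DNAJB9, a co-chaperone of BiP, differed by -0.57 ± 0.12, and MANF, a secreted protein induced by ER stress, by -0.69 ± 0.16, both without overlap. SEC23B, a coat protein of vesicles that leave the ER, measured 239, 131, 188, 202 and 143 CPM and 86.5, 117, 127 and 85 CPM, which gave a log2 fold change of -0.80 ± 0.19. CALR, the lectin chaperone calreticulin, differed by -0.48 ± 0.19, with cow C inside the heifers' range. NUCB2, a calcium-binding protein of the Golgi and the precursor of nesfatin, had the smallest p of the list. It measured 64.3, 65, 68.6, 69 and 76.6 CPM in the heifers and 41.9, 40.4, 45.6 and 48 CPM in the cows, and the gap between the groups exceeded the spread within either. Its log2 fold change was -0.64 ± 0.10 (adjusted p = 0.173 in edgeR and 0.000221 in DESeq2). Without cow D, 5 of the 26 genes were past the unadjusted threshold, and without cow A 7 were.

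ERBB4, the neuregulin and betacellulin receptor that also drives milk-gland differentiation, had the smallest p of all tested genes. It measured 13.5, 14.7, 13.5, 15.4 and 16.5 CPM in heifers A to E and 29.1, 25.4, 26.9 and 28.8 CPM in cows A to D. Each group was tight, no cow came near the highest heifer, and the log2 fold change was 0.90 ± 0.13 (adjusted p = 0.152 in edgeR and 0.000186 in DESeq2). Leaving out each library in turn kept the log2 fold change between 0.87 and 0.95. BTC, a ligand of ERBB4 and of the EGF receptor, measured 21.2, 24.2, 22.5, 24.5 and 18.8 CPM in the heifers and 30.5, 33.9, 28.9 and 31.7 CPM in the cows, which gave a log2 fold change of 0.49 ± 0.13 without overlap. TGFA, a ligand of the EGF receptor, was the lower one, with 37, 64.1, 65.1, 74 and 55.4 CPM and 30.7, 38.1, 29.7 and 42.3 CPM and a log2 fold change of -0.75 ± 0.19. Heifer A was within the cows' range for TGFA. The other receptors of the family differed little, by 0.09 ± 0.16 for EGFR, -0.11 ± 0.10 for ERBB2 and -0.03 ± 0.10 for ERBB3. Over the 11 tested ERBB receptors and ligands, 2 were higher and 1 lower at an unadjusted p under 0.05, against backgrounds of 5.53 and 4.92%.

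AGT, the angiotensinogen from which angiotensin peptides are cut, was lower in every cow. It measured 829, 582, 937, 536 and 803 CPM in the heifers and 282, 295, 352 and 382 CPM in the cows. No library of one group fell inside the range of the other, and the log2 fold change was -1.17 ± 0.18 (adjusted p = 0.152 in edgeR and 1.42e-06 in DESeq2). AGT was the 1 gene past the unadjusted threshold among 6 tested genes of the renin-angiotensin system, whose median was 0.17. In the insulin and IGF axis 3 of 14 tested genes were higher at an unadjusted p under 0.05 and 0 lower, against backgrounds of 5.53 and 4.92%. GHR, the growth hormone receptor, measured 6.12, 2.75, 4.8, 7.07 and 3.08 CPM in the heifers and 6.62, 12.7, 13 and 10.9 CPM in the cows, which gave a log2 fold change of 1.19 ± 0.32, with cow A inside the heifers' range. IRS2, an adaptor of the insulin receptor, differed by 0.57 ± 0.22, with the groups overlapping at heifer D.

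**Figure D3:**
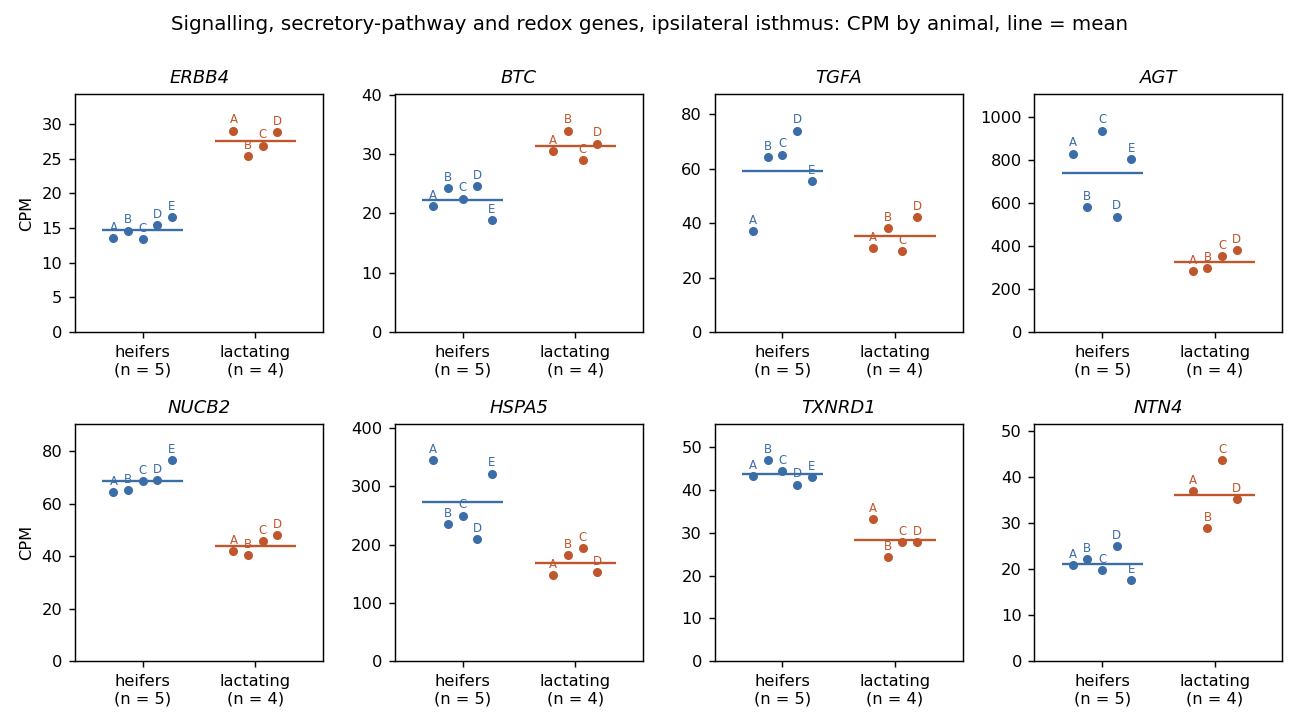
CPM (vertical axis, from 0) of 8 signalling, secretory-pathway and redox genes in 5 heifers (blue) and 4 lactating cows (orange), 1 point per animal with its letter and a line at the group mean. ERBB4 lies between 13.5 and 16.5 CPM in the heifers and between 25.4 and 29.1 CPM in the cows, whereas AGT, NUCB2, HSPA5 and TXNRD1 are lower in every cow than in any heifer.

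Immune genes were higher in the lactating cows, but unevenly between animals. SAA3, an acute phase serum amyloid made by epithelia, was the most even of them, with 410.3, 423, 284, 426 and 489.9 CPM in the heifers and 1479, 768, 798 and 1310.2 CPM in the cows. Every cow was above every heifer, cows A and D the most, and the log2 fold change was 1.42 ± 0.22 (adjusted p = 0.152 in edgeR and 1.42e-06 in DESeq2). Its close copy M-SAA3.2, the mammary form, differed by 0.76 ± 0.33 with overlapping groups. Uniquely placed reads cannot be split with certainty between such copies, so that both values are uncertain. The complement genes were by far the highest in cow A. C3, the central complement protein, measured 7.4, 82.4, 86.5, 117 and 96.6 CPM in the heifers and 4069.8, 96.8, 312 and 331 CPM in the cows. C1S, a protease that starts the classical complement pathway, measured 0.766, 1.1, 2.11, 0.832 and 1.73 CPM in the heifers and 112, 3.54, 8.77 and 6.84 CPM in the cows. SERPING1, the inhibitor of that protease, measured 1.02, 2.75, 2.11, 4.99 and 6.15 CPM in the heifers and 174, 4.16, 9.77 and 4.56 CPM in the cows. Cow A was far above all other libraries for all 3, and heifer A was the lowest for each. Their log2 fold changes were 3.94 ± 1.01, 4.59 ± 1.01 and 3.79 ± 1.09, and 1.66, 2.25 and 0.83 without cow A. For C1S the other cows were above all heifers too. Of 13 tested acute phase and mucosal defence genes, 5 were higher and 0 lower at an unadjusted p under 0.05, with a median of 0.76. Without cow A 3 were higher and 1 lower, and the median was 0.20.

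All 7 tested genes of MHC class II presentation had a positive log2 fold change, 6 of them at an unadjusted p under 0.05, with a median of 2.53. The list had 17 genes, of which 11 were in the deposited counts. BOLA-DRA and BOLA-DRB3 were absent there, and BOLA-DQB was among those below the filter on low counts. BLA-DQB, a class II β chain, measured 5.1, 7.51, 2.5, 9.98 and 9.04 CPM in the heifers and 228, 49.7, 93.9 and 15 CPM in the cows. All cows were above the heifers, cow D only narrowly, and the log2 fold change was 3.81 ± 0.66 (adjusted p = 0.176 in edgeR and 0.000485 in DESeq2). The class II genes are polymorphic and have near-identical copies, so that the level of each single gene is uncertain. CD74, the invariant chain that guards the class II groove, measured 116, 157, 95.9, 239 and 115 CPM in the heifers and 2509, 173, 483 and 174 CPM in the cows. CIITA, the master switch of class II transcription, measured 3.32, 0.916, 1.54, 4.78 and 4.04 CPM in the heifers and 72, 4.58, 52.6 and 0.977 CPM in the cows. Cows A and C were above all heifers for both genes, and cows B and D were within the heifers' range. BOLA-DMA and BOLA-DMB, which load peptides on class II, were highest in the same 2 cows, with 47.9, 10.6, 24.7 and 8.14 CPM and 158, 18.3, 71.6 and 16.3 CPM in cows A to D against at most 8.42 and 19.1 CPM in the heifers. BOLA-DQA5 reached 102 CPM in cow A, was at 0 in cow B and heifers A and C, and measured at most 6.35 CPM in the other libraries. As a median over the 7 genes, cows A to D stood 4.19, 0.37, 2.29 and 0.34 above the heifer mean on the log2 scale. Without cow A, 5 of the 7 were past the unadjusted threshold, the median was 1.26 and CD74 differed by 0.93.

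The genes of class I presentation and of the immunoproteasome showed the same 2 cows at a smaller scale. All 15 tested genes were higher, 6 at an unadjusted p under 0.05, with a median of 0.65. Over these 15 genes the cows stood at 1.61, 0.02, 0.74 and -0.10 relative to the heifer mean (cows A to D, log2). PSMB9, an immunoproteasome subunit, measured 11.7, 17, 12.5, 8.32 and 13.3 CPM in the heifers and 74, 11.7, 48.8 and 15.5 CPM in the cows. TAP1, which pumps peptides into the ER, measured 29.3, 35, 21.3, 21.8 and 26.4 CPM in the heifers and 92.7, 32.1, 69 and 25.7 CPM in the cows. Cows A and C were above all heifers for both, and cows B and D were not. Of 20 tested interferon-stimulated genes, 19 were higher and 5 passed the unadjusted threshold, with a median of 0.73. As a median over these 20 genes, cows A to D stood 1.56, -0.23, 1.61 and -0.60 relative to the heifer mean on the log2 scale. Cows A and C were again the high ones. Without cow A, 3 class I genes and 1 interferon-stimulated gene were higher at the unadjusted threshold, and the medians were 0.29 and 0.44. Without cow C, 2 interferon-stimulated genes were, and their median was 0.30. Without cow B, or without cow D, 10 class I genes and 8 interferon-stimulated genes were.

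Markers of macrophages or dendritic cells were higher as well, while those of other immune cells were mixed between animals. All 8 tested macrophage or dendritic cell markers had a positive log2 fold change, 6 at an unadjusted p under 0.05, with a median of 1.39, and their sum lay between 31.0 and 63.4 CPM in the heifers and between 53.9 and 255 CPM in the cows. CSF1R, the receptor of macrophage colony-stimulating factor, measured 4.08, 11, 6.92, 10.2 and 4.62 CPM in the heifers and 43.5, 11.2, 10.2 and 22.6 CPM in the cows. C1QB, a subunit of complement C1q made by macrophages, measured 3.57, 5.13, 7.11, 11.4 and 4.62 CPM in the heifers and 39.5, 7.7, 12 and 17.4 CPM in the cows. FLT3, a receptor of dendritic cell precursors, was the only 1 of the 8 without overlap, with 5.87, 3.48, 4.42, 2.7 and 3.65 CPM in the heifers, 14.2, 7.7, 6.78 and 11.6 CPM in the cows and a log2 fold change of 1.33 ± 0.30. Cow A was again the highest for all 3 of these genes, and without it 3 of the 8 were past the unadjusted threshold and the median was 0.66. T or NK cell markers summed to 5.38 to 13.5 CPM in the heifers and 9.97 to 81.3 CPM in the cows, whereas B or plasma cell markers stayed at or under 1.15 and 3.61 CPM. AIF1, a calcium-binding protein of macrophages, differed by 1.59 ± 0.52, and CD2, an adhesion receptor of T cells, by 1.48 ± 0.62, both with overlapping groups. Without cow A these log2 fold changes were 0.92 and 0.64. As a median over the 8 macrophage or dendritic cell markers, cows A to D stood 2.54, 0.36, 0.50 and 1.38 above the heifer mean on the log2 scale. Cow A was thus the highest for these markers and for the class II genes, whereas cow C, the second for class II, was below cow D for the markers. The part of these cells in the class II, complement and interferon results was not tested. In such bulk RNA, more cells of a type and more RNA per cell cannot be told apart.

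**Figure D4:**
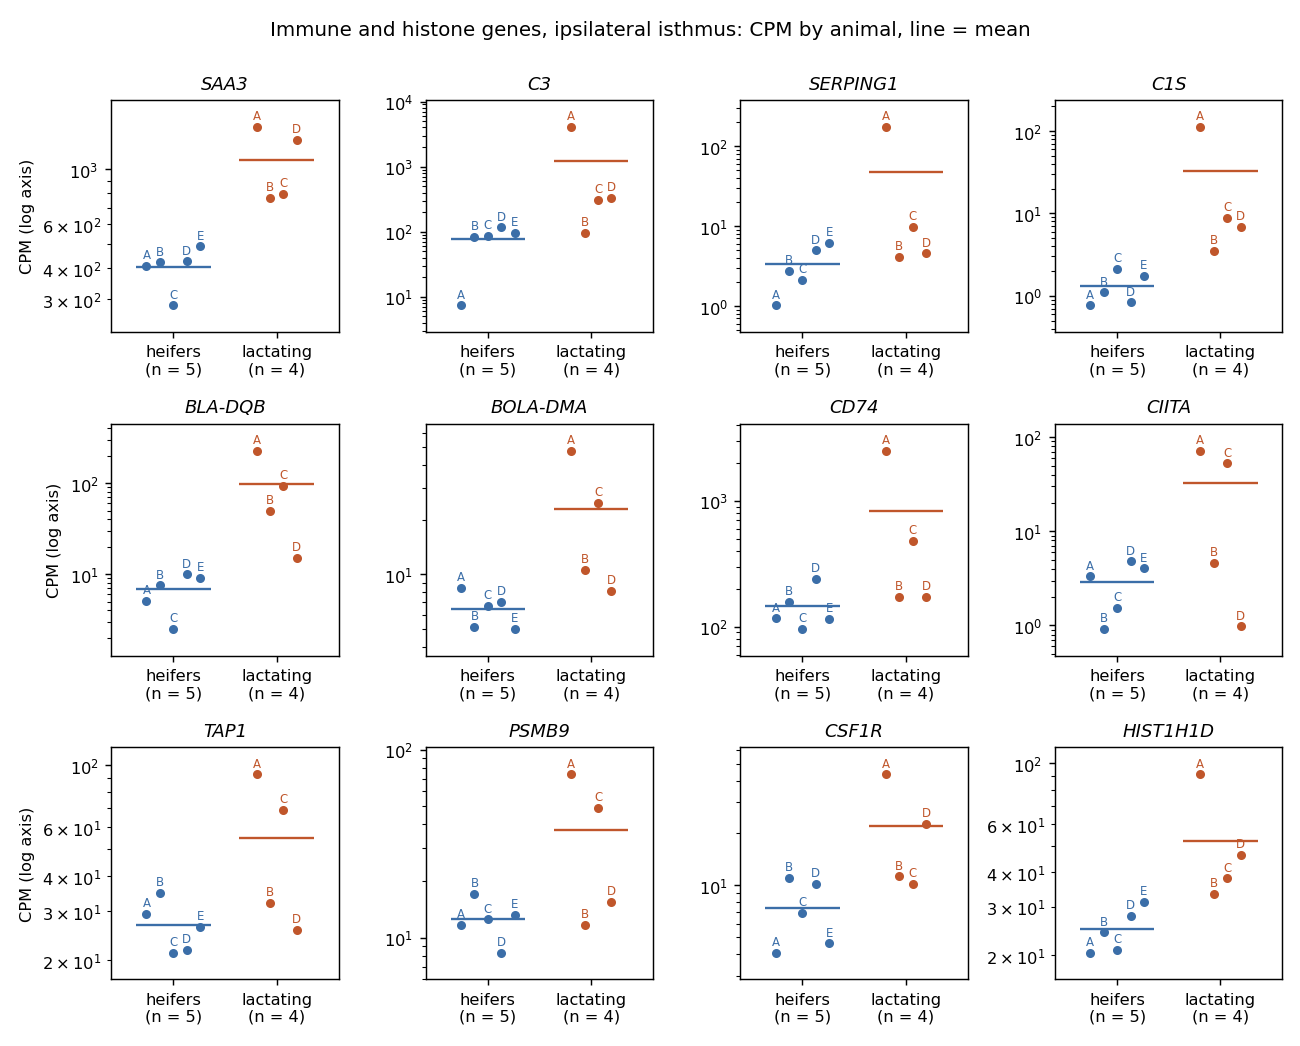
CPM (vertical log axes) of 12 immune and histone genes in 5 heifers (blue) and 4 lactating cows (orange), 1 point per animal with its letter and a line at the group mean. SAA3, BLA-DQB, C1S and HIST1H1D are higher in all cows; for CD74, CIITA, TAP1 and PSMB9 cows A and C stand above cows B and D, which lie at or near the heifers.

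Most replication-dependent histone genes had higher values in the cows. Of 16 tested replication-dependent histone genes, 15 were higher, 8 at an unadjusted p under 0.05 and 0 lower, with a median of 0.60. HIST1H1D, a linker histone, measured 20.4, 24.2, 20.9, 27.9 and 31.2 CPM in the heifers and 91.1, 33.5, 38.1 and 46.4 CPM in the cows. The groups did not overlap, cow A was the highest, and the log2 fold change of 1.07 ± 0.27 became 0.66 without it. HIST1H2BB and HIST1H2BL, core histones H2B, differed by 0.73 ± 0.19 and 1.90 ± 0.50, and the gene listed as H2B by 1.46 ± 0.41. Histone genes are near-identical copies of each other, so that the value of each single gene is uncertain. Without cow A the median of the histone list was 0.39. Among 17 tested proliferation genes 5 were higher and 1 lower at an unadjusted p under 0.05, against backgrounds of 5.53 and 4.92%. The median of these 17 genes was 0.45, or 0.19 without cow A. Their summed level went the other way, with 583 to 747 CPM in the heifers and 491 to 642 CPM in the cows. KNSTRN, a kinetochore protein of mitosis, measured 24.5, 21.8, 21.9, 18.5 and 24.6 CPM in the heifers and 42.9, 33.9, 31.3 and 35.5 CPM in the cows, without overlap. BRCA2, of DNA repair during replication, differed by 0.90 ± 0.22, and TYMS, which makes thymidylate for DNA, by 0.74 ± 0.19. The lower gene was CDKN1C, an inhibitor of the cell cycle, with 44.4, 26.7, 32.9, 39.9 and 27.9 CPM in the heifers, 11.4, 12.9, 21.1 and 25.9 CPM in the cows and a log2 fold change of -0.94 ± 0.26.

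Matrix and adhesion genes went both ways, with 4 of 18 tested genes higher and 4 lower at an unadjusted p under 0.05. Over all tested genes 5.53% were higher and 4.92% lower at that threshold. The counts of matrix and adhesion genes were 5 and 2 without cow A, 4 and 2 without cow C, and 2 and 5 without cow D. NTN4, a netrin of basement membranes, measured 20.9, 22.2, 19.8, 25 and 17.7 CPM in the heifers and 36.9, 28.9, 43.6 and 35.2 CPM in the cows. The cows were all above heifer D, the highest heifer, and the log2 fold change was 0.78 ± 0.15 (adjusted p = 0.244 in edgeR and 0.0077 in DESeq2). COL3A1, a collagen of connective tissue, was scarce in the heifers at 2.3, 0, 2.69, 2.7 and 1.73 CPM and measured 16.9, 3.75, 19.9 and 14 CPM in the cows. Cow B was only just above the heifers, and the log2 fold change was 2.86 ± 0.62. COL3A1 is itself 1 of the 4 tested fibroblast markers and had the largest log2 fold change of them, while their median was 0.56. All 4 were higher, 2 at an unadjusted p under 0.05, or 1 without cow B, cow D or heifer A, B or E. As a median over the 4, cows A to D stood 1.71, 0.57, 0.67 and 0.66 above the heifer mean (log2), whereas COL3A1 was highest in cow C. TIMP1, an inhibitor of matrix proteases, was lower, with 103, 99.1, 112, 59.3 and 87.3 CPM in the heifers and 31.1, 33.5, 44.4 and 64 CPM in the cows, which gave a log2 fold change of -1.09 ± 0.24. Cow D was above heifer D for TIMP1, and the other cows were below all heifers. COL7A1, of the anchoring fibrils below epithelia, differed by -0.68 ± 0.17 and ITGB3, an integrin of matrix adhesion, by -0.94 ± 0.25, both without overlap. MMRN2, an endothelial matrix protein, measured 16.3, 12.1, 6.73, 19.3 and 10.8 CPM and 24.7, 33.7, 23.9 and 23.3 CPM, and it was the 1 of 3 tested endothelial markers past the unadjusted threshold.

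The remaining genes with the smallest p and no overlap between the groups had other roles. Among the lower ones, NEBL, the actin-binding nebulette, measured 338, 289.6, 275, 372 and 307 CPM in the heifers and 106, 192, 189 and 161 CPM in the cows, which gave a log2 fold change of -0.97 ± 0.17. CNNM4, a magnesium transporter of epithelia, differed by -0.88 ± 0.16, CABIN1, an inhibitor of calcineurin, by -0.79 ± 0.15, and TMIE, a transmembrane protein known from the inner ear, by -1.64 ± 0.34. TXNRD1, the thioredoxin reductase of the cytosol, measured 43.1, 46.9, 44.4, 41.2 and 42.9 CPM in the heifers and 33.1, 24.4, 27.7 and 27.8 CPM in the cows. Both groups were narrow, and the log2 fold change was -0.63 ± 0.12 (adjusted p = 0.244 in edgeR and 0.00494 in DESeq2). Of the higher ones, ABCA13, a large lipid transporter, measured 272, 397, 219, 133 and 171 CPM in the heifers and 1124, 582, 493 and 551 CPM in the cows, with cow A at the top and a log2 fold change of 1.53 ± 0.32. C28H10orf54, which encodes the immune checkpoint protein VISTA, differed by 0.76 ± 0.16, and ASB15, an adaptor of ubiquitin ligases, by 1.65 ± 0.34. FERMT3, the kindlin of blood cells, and FGD3, an activator of Cdc42, were counted by few reads in the heifers, with at most 1.10 and 1.83 CPM. Every cow exceeded these levels, and the log2 fold changes were 1.92 ± 0.38 and 2.10 ± 0.45.

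The same animals also gave their contralateral isthmus, the side without the CL. There, 0 of 13832 genes (0%) passed an adjusted p under 0.05, the smallest being 0.235, and 1478 (10.7%) had an unadjusted p under 0.05. Both comparisons draw on the same animals, so that their values are given side by side. HMGCS1 measured 176, 117, 222, 192 and 97.3 CPM in the contralateral isthmus of heifers A to E and 103, 92.7, 104 and 99.7 CPM in cows A to D, which gave a log2 fold change of -0.69 ± 0.21 beside -0.71 ± 0.17 on the ipsilateral side. Contralateral heifer E was within the range of the cows. Cholesterol biosynthesis had a contralateral median of -0.28, with 9 of its genes lower at an unadjusted p under 0.05, and ER chaperones one of -0.18, with 3 lower and 1 higher. BLA-DQB measured 9.14, 10.9, 3.51, 11.1 and 15.3 CPM in the heifers and 110.5, 82.9, 156 and 15.1 CPM in the cows. Cow D again stood apart from the other cows, at the level of the highest heifer, and the log2 fold change was 3.19 ± 0.56. The 6 class II genes tested there stood 3.07, 0.55, 2.17 and 0.12 above the contralateral heifer mean in cows A to D as a median on the log2 scale, so that cows A and C were the high animals on both sides.

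The difference between the sides was tested in a single fit with the animal as a term. Of 15386 genes, 0 (0%) passed an adjusted p under 0.05, the smallest being 0.603, and 621 (4.04%) had an unadjusted p under 0.05. ERBB4 measured 53.4, 46.9, 33.8, 37.9 and 49.4 CPM in the contralateral heifers and 50.8, 50.6, 58.6 and 52.3 CPM in the contralateral cows, where its log2 fold change was 0.27 ± 0.14. The contralateral groups overlapped, and the ipsilateral minus the contralateral difference was 0.61 ± 0.18 (adjusted p = 0.994 in edgeR). SAA3 showed 0.56 ± 0.42 contralaterally, with 479, 253, 58.2 and 192 CPM in the cows, and a difference between the sides of 1.12 ± 0.38 (adjusted p = 0.994 in edgeR). VNN1, TXNRD1 and HSPA5 had contralateral log2 fold changes of 0.41, -0.12 and -0.30, and AGT one of -1.03. Their differences between the sides were 1.27 ± 0.32, -0.51 ± 0.19, -0.38 ± 0.17 and -0.27 ± 0.34.

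**Figure D5:**
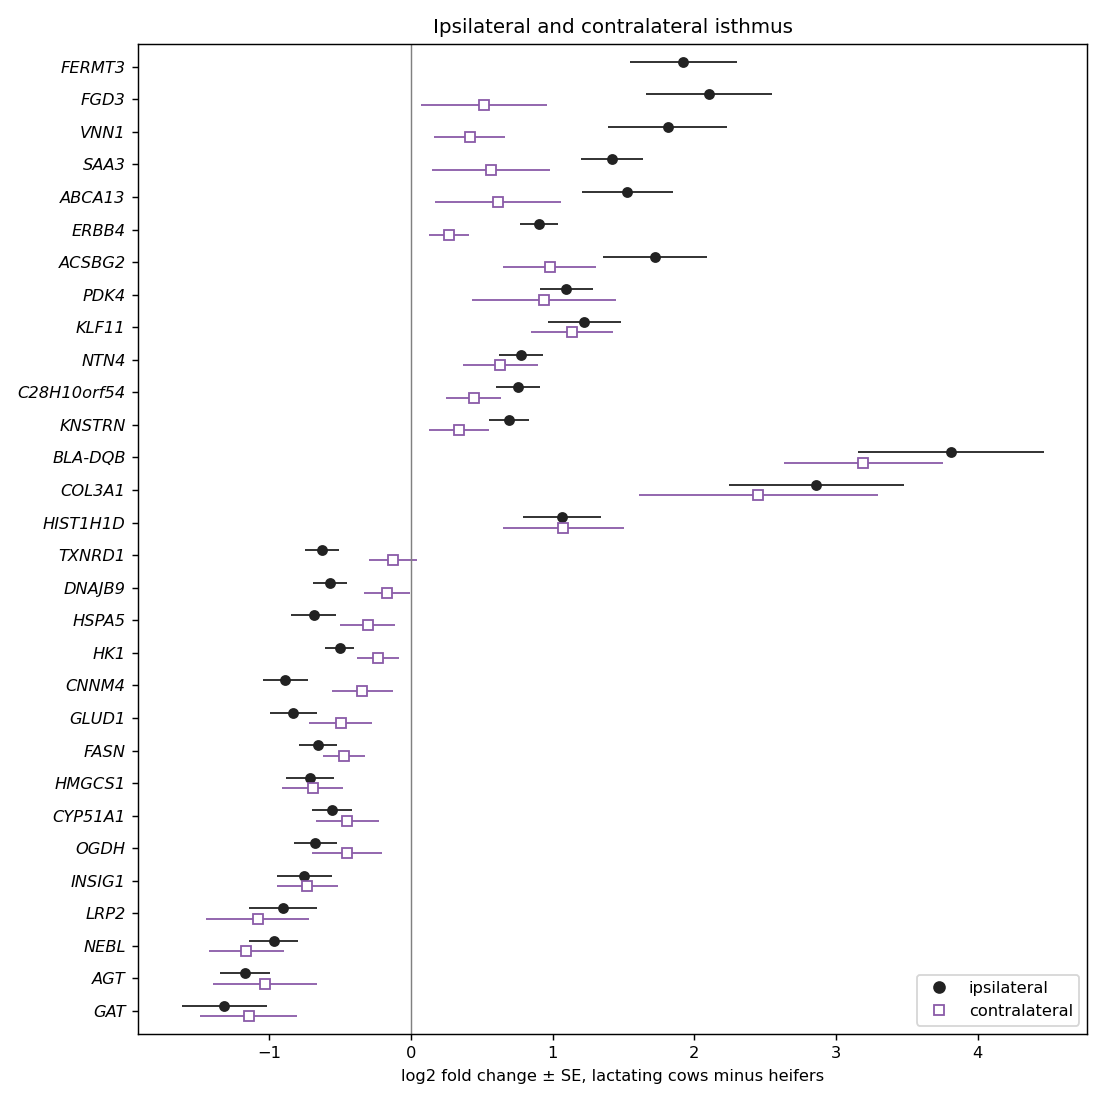
Log2 fold change ± SE (horizontal axis, lactating cows minus heifers) of 30 genes in the ipsilateral isthmus (filled circles) and the contralateral isthmus (open squares) of the same 5 heifers and 4 cows. For HMGCS1, AGT and BLA-DQB the SE bars of both sides overlap, whereas for ERBB4, SAA3, VNN1 and TXNRD1 they do not. The bars come from a separate fit of each side and do not test the difference between the sides. In the fit with the animal as a term, 0 of 15386 genes passed an adjusted p under 0.05 for that difference. FERMT3 was below the filter on low counts contralaterally.

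The 5 non-lactating cows, which were likewise sampled at about 60 days post-partum but were never milked, allowed the levels to be set beside those of another group, with no test made here. Their values were scaled over the 14 libraries of the ipsilateral isthmus, and those of heifers and lactating cows over 9 libraries. The order of values that lie close together is thus uncertain. In the ipsilateral isthmus of the non-lactating cows, ERBB4 measured 25.8, 24.9, 28.9, 24.1 and 33.8 CPM, at the level of the lactating cows and above every heifer. GAT measured 19.8, 17.4, 22.2, 23.9 and 22.2 CPM, below all heifers and within the range of the lactating cows. HMGCS1 measured 282, 213, 317, 273 and 137 CPM, from about the level of the lowest lactating cow up to the heifers' range. PDK4 measured 184, 57.7, 66.8, 77.5 and 179 CPM, so that 3 of the non-lactating cows were at or below the heifers' range and 2 within that of the lactating cows. BLA-DQB measured 11.1, 4.12, 6.64, 7.48 and 11.1 CPM, near the heifers' level and below every lactating cow. AGT measured 499.9, 374, 248, 237 and 586 CPM, from below the lowest lactating cow up to the heifers' range. Non-lactating cow C, whose labels disagree, is the third value of each gene, and it sets neither end of the ranges other than the upper end for HMGCS1, where the next cow was also within the heifers' range.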

How the data were processed

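The authors trimmed the reads, aligned them with TopHat2 2.0.13 to the bovine genome Btau_4.6.1 and counted them per gene with HTSeq 0.6.1 by strand in its intersection-strict mode, after base calling with bcl2fastq 1.8.4, per the labels and the study's methods. The deposited values are raw counts, 1 column per library, from which the summary lines were removed. Per library, 37.1 to 48.6% of alignments had no feature and 37.7 to 53.6% were not unique. Columns carry the animal's number, so that samples of a group are separate animals, although 2 numbers stand under different labels in the ampulla, and gene totals from 3875324 to 6208967 set the precision of low genes. Pairs of libraries of a group differed by more than sampling noise.

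In R 4.3.3, edgeR 4.0.16 kept genes by filterByExpr with a count minimum of 10, scaled with TMM, estimated dispersions and tested lactating cows against heifers with the quasi-likelihood test and Benjamini-Hochberg adjustment, at a threshold of 0.05. Log2 fold changes are edgeR's, and their SE is the size of the log2 fold change divided by the square root of F. The contralateral isthmus was fitted likewise, and the difference between the sides in a fit with the animal as a term. Per-animal list values are medians of log2 CPM (prior count 2) minus the heifer mean. DESeq2 1.42.0 and the other alternatives are given in the closing section. The comparison, its gene lists and tests were chosen with earlier results of these data known. Named genes were the 12 smallest p in each direction with a gene symbol and no overlap, up to 6 genes per list at an unadjusted p under 0.05, genes the study names and defining markers, of which the text shows those it describes. Some genes are not reported here. Scripts were tested on simulated data. No coordinates or sequences are given because no genome of this build was used here.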

Additional observations from a re-analysis of the deposited data

Results flagged for a closer look

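For 92 genes named in the text the gap between the most extreme animal and its nearest neighbour was compared with the whole range of its group by Dixon's test at the 95% level, in 184 groups. It was exceeded in 14 groups, 11 of lactating cows and 3 of heifers. For independent, normally distributed values chance alone exceeds it in about 1 in 20 groups. That rate need not hold here, since CPM were used without a log scale and all genes come from the same animals. The genes were also picked largely by small p in these data.

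Lactating cow A was the extreme animal for 7 of these genes, each time as the highest cow. It measured 4069.8 CPM for C3, where the other cows measured at most 331 CPM, 112 CPM for C1S against at most 8.77 CPM and 174 CPM for SERPING1 against at most 9.77 CPM. It also stood apart for CD74 (2509 CPM, the others at most 483 CPM), BOLA-DQA5 (102 CPM, at most 6.35 CPM), ABCA13 (1124 CPM, at most 582 CPM) and FERMT3 (5.22 CPM, at most 3.12 CPM). Macrophage or dendritic cell markers summed to their highest level in this animal, and their part in these values was not tested. Cow B was the extreme cow for MMRN2 (33.7 CPM, the others 23.3 to 24.7 CPM) and for DBP (18.5 CPM, the others 22.1 to 22.6 CPM). Cow C was extreme for ERBB3 (401 CPM, the others 344 to 346 CPM) and for TNFSF9 (5.78 CPM, the others 17.4 to 19.5 CPM). Among the heifers, heifer D stood apart for INSIG1 (46.6 CPM, the others 27.9 to 32.2 CPM) and FASN (204 CPM, the others 268 to 281 CPM), and heifer A for TMIE (31.9 CPM, the others 8.94 to 15.6 CPM).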

How the results depend on the processing

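The count of genes past an adjusted p of 0.05 depended on the tool. In the ipsilateral isthmus edgeR called 0 of 13840 genes, also with RLE size factors, robust dispersions or all 3 metabolic groups in a single fit, while it called 4 without the filter on low counts, and DESeq2 called 127 with its defaults and 113 with its beta prior. At an unadjusted p under 0.001 edgeR gave 52 genes. Leaving out each library in turn gave 0 to 0 called genes and 971 (without cow A) to 1704 (without heifer D) genes at an unadjusted p under 0.05, against 1446 with all libraries. Without cow A and heifer A together, a choice made after seeing the data, the last count was 910. DESeq2's beta prior, which shrinks uncertain fold changes towards 0, gave lower medians for class II (0.67), macrophage or dendritic cell markers (0.68), class I (0.37), interferon-stimulated (0.27) and acute phase genes (0.19). For class II and acute phase genes DESeq2 gave a p for 6 of 7 and 11 of 13 genes, and the medians cover these. With its defaults their medians were 2.35 and 0.58. In the contralateral isthmus DESeq2 called 73 genes, or 51 with its beta prior, and edgeR 0 to 1 with a library left out, the 1 call coming without cow D. For the difference between the sides DESeq2 called 1 gene, and edgeR 0 without the animal term and 0 to 0 with an animal left out.

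Of the genes named, 3 had a log2 fold change that turned its sign, all of them near 0: EGFR ranged from -0.034 to 0.21 and OVGP1 from -0.30 to 0.34 with a library left out, ERBB3 from -0.089 to 0.0046, and without cow A and heifer A together OVGP1 was at -0.41 and ERBB3 at 0.011. No named gene turned its sign under another normalization, filter, dispersion or tool, though C1S, SERPING1 and BOLA-DQA5 had no p in DESeq2 and were not compared there. No paired analysis was possible because the heifers and the cows are different animals and the columns carry animal numbers that the groups do not share. The 4 against 5 animals and the few reads of genes at low CPM limit what these values can show.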

Other observations

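Circadian clock genes were mostly higher in the cows, by a count that single libraries moved. Of 14 tested genes of the circadian clock, 6 were higher and 2 lower at an unadjusted p under 0.05, against backgrounds of 5.53 and 4.92%. The list's median was 0.30 in the ipsilateral isthmus and -0.03 in the contralateral one. The higher clock genes numbered 3 without cow A, and the lower ones 0 without heifer A, heifer C or cow D. KLF11, a transcription factor that this list includes, measured 10.2, 8.98, 15.9, 15.8 and 15 CPM in heifers A to E and 24.9, 45.8, 20.7 and 32.2 CPM in cows A to D. All cows were above the heifers, cow B the most, and the log2 fold change was 1.22 ± 0.26 (adjusted p = 0.244 in edgeR and 0.00644 in DESeq2) beside 1.14 ± 0.29 contralaterally. DBP, a clock output factor, differed by 0.78 ± 0.27 ipsilaterally and 0.06 ± 0.23 contralaterally. The hour of sampling of each animal was not used here.

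Steroid hormone receptors showed small differences. NR3C1, the glucocorticoid receptor, measured 53.1, 63.8, 72.8, 100.2 and 72.3 CPM in the heifers and 133, 106, 98.3 and 90.5 CPM in the cows, with heifer D inside the cows' range and a log2 fold change of 0.56 ± 0.18. ESR1, the oestrogen receptor α, differed by 0.39 ± 0.16 with overlapping groups. HSD17B10, a mitochondrial steroid and fatty acid dehydrogenase, was lower in every cow, with 129, 139, 119, 120.4 and 107 CPM in the heifers, 78, 65.8, 70.6 and 102 CPM in the cows and a log2 fold change of -0.64 ± 0.14.

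Of the 12 tested heat shock genes, HSPA8, the constitutive cytosolic chaperone, differed by -0.47 ± 0.15 without overlap, whereas HSPB1, a small heat shock protein, was higher in cows C and D, with 169, 165, 163, 188 and 171 CPM in the heifers and 175, 175, 439 and 305 CPM in the cows. TNFSF9, a costimulatory ligand of T cells, measured 5.1, 6.78, 7.69, 5.41 and 4.04 CPM in the heifers and 19.5, 18.7, 5.78 and 17.4 CPM in the cows, so that cow C alone was at the heifers' level. NFKBIZ, a nuclear regulator of NF-κB in epithelia, differed by 0.67 ± 0.17 without overlap. ABCC8, the sulfonylurea receptor, differed by -1.34 ± 0.33 ipsilaterally and 0.34 ± 0.57 contralaterally, and the difference between the sides was -1.45 ± 0.57.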
